A study of Homo sapiens with 5 samples.

Results

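The small nucleolar RNAs (snoRNAs) and small Cajal body RNAs (scaRNAs) were compared between Ishikawa cells, a human line established from endometrial carcinoma, in which the long non-coding RNA LINC00958 was silenced and control Ishikawa cells. They were selected on symbol and mean level, as the genes whose symbol starts with SNORD (box C/D snoRNAs), SNORA (box H/ACA snoRNAs) or SCARNA (scaRNAs) and whose mean over the 5 libraries was at least 1 TPM. TPM is a transcript abundance scaled for gene length that sums to the same total in every library. Of 58174 genes in the table, 851 have such a symbol, and 177 of these reached the mean of 1 TPM. They comprised 79 C/D snoRNAs, 86 H/ACA snoRNAs and 12 scaRNAs, named here the small RNAs. A further 412 of the 851 were listed at 0 in every library, and 262 had values above 0 with a mean under 1 TPM. The selection used the mean of the same libraries that are compared, so a small RNA present in only 1 group could enter through that group.

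The group sh-LINC00958 (3 libraries) carried a lentiviral short hairpin RNA against LINC00958, and the group sh-NC (2 libraries) was the negative control. Per the labels, all 5 libraries came from Ishikawa cells under 1 protocol of lentivirus infection and selection with puromycin at 2.5 µg/ml, applied 72 h after infection. Each library was made from 1 µg of DNase-treated total RNA with an mRNA kit. Of the hairpins, neither the number nor the sequences are stated in these sources, and clonality of the cells is not stated either. Whether replicate libraries are separate cultures is not stated, so each p-value reflects variation among these 5 libraries alone, and that variation may be technical.

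Box C/D snoRNAs assemble with fibrillarin (FBL), NOP56, NOP58 and SNU13 and guide ribose methylation, mostly of ribosomal RNA, while box H/ACA snoRNAs assemble with dyskerin (DKC1), NHP2, NOP10 and GAR1 and guide pseudouridylation. The scaRNAs use either box to guide modification of spliceosomal RNAs in Cajal bodies. Most human members are cut from introns of host transcripts, many of which encode ribosomal or translation proteins or are themselves non-coding small nucleolar RNA host genes (SNHG). The mature RNAs have no poly(A) tail, and a read inside a small RNA can come from the mature RNA or from a host transcript that spans it. Gene TPM does not tell these sources apart.

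Sequences of the small RNAs with the largest fitted changes, and of a neighbour from each of 2 shared hosts, are given 5′ to 3′ from the GENCODE 29 transcripts on GRCh38, with T in place of U. Capitals mark the box C motif TGATGA and the box D motif CTGA in SNORD genes, and ACA 3 bases before the end in SNORA genes. SNORD12 lies at chr20:49280683-49280772 on the plus strand within ZFAS1, and SNORA77B at chr22:20126402-20126526 on the plus strand within RANBP1. SNORD5 (chr11:93733228-93733300) and SNORA40 (chr11:93735111-93735236) share the host TAF1D on the minus strand. SNORD27 (chr11:62855012-62855083) and SNORD26 (chr11:62855292-62855366) share SNHG1, also on the minus strand. In SNORA40 the marked motif was not found, and in SNORD26 only CTGA was found in these windows.
SNORD12: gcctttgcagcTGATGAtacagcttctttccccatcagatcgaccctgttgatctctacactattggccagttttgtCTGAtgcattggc
SNORD5: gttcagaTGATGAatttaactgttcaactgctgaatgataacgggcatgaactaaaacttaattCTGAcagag
SNORD27: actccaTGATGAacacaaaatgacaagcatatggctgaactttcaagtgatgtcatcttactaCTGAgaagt
SNORD26: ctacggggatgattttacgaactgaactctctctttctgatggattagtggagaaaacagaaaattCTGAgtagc
SNORA77B: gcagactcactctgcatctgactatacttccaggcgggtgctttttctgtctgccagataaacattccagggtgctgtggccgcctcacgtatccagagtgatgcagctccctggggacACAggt
SNORA40: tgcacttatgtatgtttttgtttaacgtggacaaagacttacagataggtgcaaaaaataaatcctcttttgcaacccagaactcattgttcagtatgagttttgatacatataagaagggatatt

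Motifs were searched on the transcript strand in the 172 small RNAs with a single listed transcript. TGATGA started within the first 20 bases of 49 of 76 C/D members (64.5%), against 62.9% of all 369 C/D genes compared. CTGA started within the last 20 bases of 74 of 76 (97.4%), against 88.6%. ACA stood 3 bases before the end in 59 of 84 H/ACA members (70.2%), against 62.1% of all 419 H/ACA genes compared, and in 8 of 12 scaRNAs (66.7%), against 50.9% of 55. Median annotated lengths were 84 nt for C/D members, 135 nt for H/ACA members and 137.5 nt for scaRNAs. Of the 177, 11 are annotated at 200 nt or longer, up to 4325 nt for a row named SCARNA15 that GENCODE 29 lists as a processed transcript. Of the 172 compared, 44 had another gene of these names at 90% identity or more, among which reads could be split, and their values are uncertain. The strand setting is not stated, so reads from overlapping genes on opposite strands may also be mixed.

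LINC00958 itself had 67.2, 67.1 and 58.4 TPM in sh-LINC00958 libraries and 119.3 and 137.4 TPM in sh-NC libraries (log2 fold change -0.99, SE 0.106, adjusted p = 0.0119 by limma). The adjusted p was 0.0545 without sh-LINC00958 library 1, 0.0677 without sh-NC library 1 and 0.0871 without sh-NC library 2. Across all 17049 genes with a mean of at least 1 TPM, limma called 702 (4.12%) higher and 969 (5.68%) lower, or 9.8% in all, with an adjusted p under 0.05 as the threshold. Epithelial markers were tested for 8 of 8 genes and their summed level was 2394, 2423 and 2570 TPM in sh-LINC00958 and 2406 and 2404 TPM in sh-NC, with KRT18 called higher. Summed levels of fibroblast, blood and endothelial markers lay between 4.39 and 9.39 TPM in every library, with DCN, CD3E, HBB and KDR at 0. Other markers of these lists were above 0, with means of 5.30 TPM for HBA1, 4.81 for COL1A1, 2.64 for CDH5, 2.63 for CD68, 1.92 for PECAM1 and 1.07 for VWF.

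Across the 177 small RNAs, 10 were called higher in sh-LINC00958, against 4.12% of all genes tested, and 3 lower, against 5.68%, while 164 did not pass. The share called in either direction was 7.34%, against 9.8% of all genes tested. For scale, 43 of the 177 had an unadjusted p under 0.05, against 30.7% of all genes. Among the C/D members 6 rose and 2 fell, among the H/ACA members 4 rose and 1 fell, and 0 of 12 scaRNAs passed by limma, with 1 at an unadjusted p under 0.05. The median log2 fold change was 0.081 over all small RNAs, 0.070 over C/D, 0.013 over H/ACA and 0.23 over scaRNAs, against 0.0014 over all genes tested. The groups did not overlap in 60 of the 177 (33.9%), against 49.9% of all genes tested. Of these, 32 had sh-LINC00958 above, against 24.4% of all genes, and 28 had it below, against 25.5%. In bulk samples, fewer cells carrying an RNA and less of it per cell cannot be told apart.

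These counts moved with the libraries used. Without sh-LINC00958 library 1 there were 3 calls higher and 3 lower, without library 2 there were 12 and 9, and without library 3 there were 2 and 2. Without sh-NC library 1 there were 2 and 1, and without sh-NC library 2 there were 2 and 3, where the remaining control is assumed to vary like the other libraries. Over all genes the same omissions gave between 10 and 904 calls higher and between 6 and 1486 lower. SNORD12 and SNORD27 were called in all 5 of these fits. The median log2 fold change of the small RNAs lay between 0.00066 and 0.057 in these fits, against 0.081 with all libraries.

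**Figure D1:**
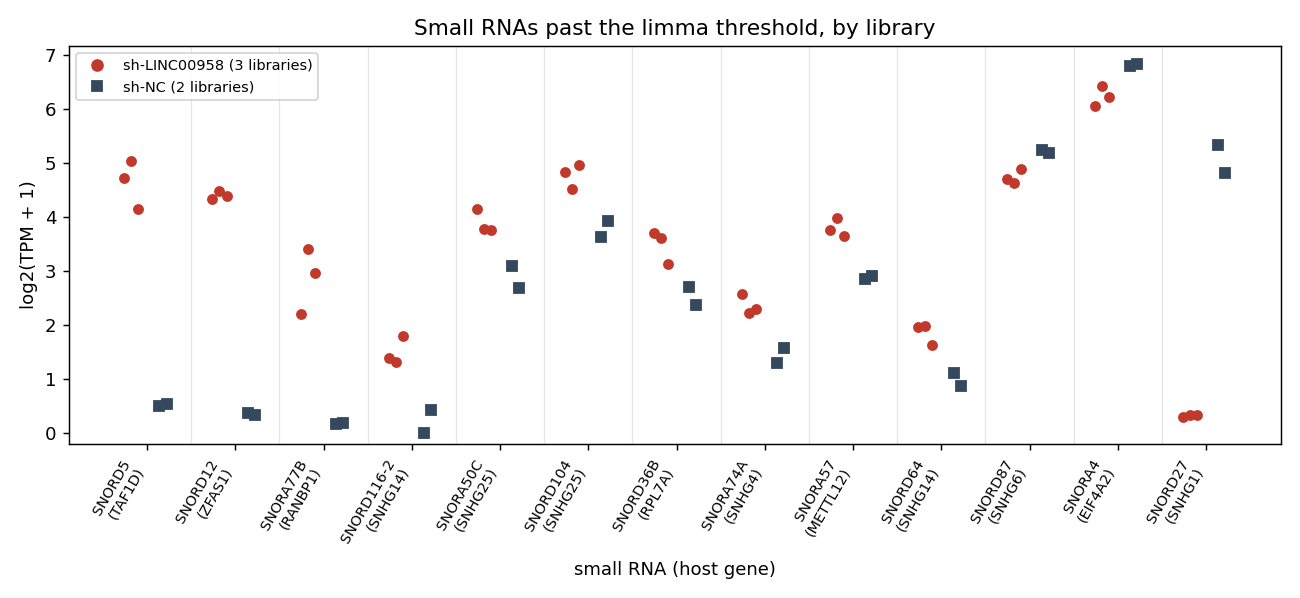
Levels of the 13 small RNAs past the limma threshold, as log2(TPM + 1) on the vertical axis, with 1 point per library (circles for the 3 sh-LINC00958 libraries, squares for the 2 sh-NC libraries) and the host gene in brackets. SNORD5, SNORD12 and SNORD27 differ by more than 4 log2 units, while SNORD87 and SNORA4 differ by -0.48 and -0.58.

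SNORD12, a C/D snoRNA within an annotated exon of the non-coding transcript ZFAS1, had 19.2, 21.5 and 20.2 TPM in sh-LINC00958 libraries and 0.299 and 0.269 TPM in sh-NC libraries. All 3 silenced libraries were alike and both controls were nearly empty, and the fitted log2 fold change was 4.05 (SE 0.124, limma adjusted p = 0.000516). SNORD5, a C/D snoRNA of TAF1D, which encodes a subunit of the RNA polymerase I initiation factor, had 25.6, 32.2 and 16.9 TPM in sh-LINC00958 and 0.424 and 0.467 TPM in sh-NC. Its log2 fold change was 4.12 (SE 0.264, limma adjusted p = 0.00486), and every silenced library lay far above both controls. Without sh-NC library 2 its adjusted p was 0.0567.

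SNORD27, a C/D snoRNA of SNHG1 that guides methylation of the small-subunit ribosomal RNA, went the other way. It had 0.227, 0.269 and 0.263 TPM in sh-LINC00958 libraries, against 39.6 and 27.3 TPM in sh-NC libraries. The silenced libraries were nearly empty and both controls were high, and the log2 fold change was -4.76 (SE 0.188, limma adjusted p = 0.00119). SNORA77B, an H/ACA snoRNA within RANBP1, a regulator of the Ran GTPase, had 3.63, 9.68 and 6.87 TPM in sh-LINC00958 and 0.136 and 0.139 TPM in sh-NC. The silenced libraries varied among themselves but all lay above both controls, with a log2 fold change of 2.68 (SE 0.351, limma adjusted p = 0.0178). Its adjusted p was above 0.05 without sh-LINC00958 library 3 and without either sh-NC library. SNORA77B is 92.8% identical to SNORA77, whose mean was 0.472 TPM.

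In these 4 and in SNORD116-2, 1 group had a mean under 1 TPM, so they passed the mean filter only through the other group. Their fold changes depended on the pseudocount. With 5 in place of 1 the log2 fold change was 2.26 for SNORD12, 2.42 for SNORD5, -2.85 for SNORD27, 1.16 for SNORA77B and 0.41 for SNORD116-2. With 0.1 it was 5.73 for SNORD12, 5.47 for SNORD5, -6.55 for SNORD27, 4.74 for SNORA77B and 3.19 for SNORD116-2, and all 5 stayed past the threshold at both settings. SNORD116-2 belongs to the C/D array within SNHG14, the imprinted host transcript at the Prader-Willi locus, whose SNORD116 RNAs have no established ribosomal RNA target. It had 1.62, 1.49 and 2.49 TPM in sh-LINC00958, and was listed at 0 in 1 sh-NC library and at 0.343 TPM in the other. The log2 fold change was 1.29 (SE 0.239, limma adjusted p = 0.0321). This snoRNA is 98.96% identical to SNORD116-6, which had 0.885, 1.53 and 3.16 TPM in sh-LINC00958 and 2.42 and 2.77 TPM in sh-NC, with overlapping groups and no call.

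The other 8 called small RNAs had a mean of at least 1 TPM in both groups. SNORD104 and SNORA50C lie in the same host, SNHG25, and are shown because their host was called in the same direction (capitals as above). SNORD104 occupies chr17:64146083-64146152 in an intron, and SNORA50C chr17:64146339-64146471 within an annotated exon, both on the plus strand.
SNORD104: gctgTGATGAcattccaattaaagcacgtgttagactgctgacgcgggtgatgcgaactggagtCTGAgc
SNORA50C: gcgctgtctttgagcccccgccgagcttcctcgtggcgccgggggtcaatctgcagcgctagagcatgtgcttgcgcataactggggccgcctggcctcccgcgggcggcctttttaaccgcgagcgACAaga

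SNORD104, a C/D snoRNA that guides methylation of the large-subunit ribosomal RNA, had 27.6, 22.1 and 30.4 TPM in sh-LINC00958 and 11.4 and 14.2 TPM in sh-NC (log2 fold change 1.00, SE 0.168, limma adjusted p = 0.0276). SNORA50C had 16.9, 12.9 and 12.6 TPM in sh-LINC00958 and 7.60 and 5.46 TPM in sh-NC (1.01, SE 0.191, adjusted p = 0.0336). Neither overlapped between groups. A second annotation of SNORA50C at the same place, named SNORA50 in the table, stayed at or below 0.00104 TPM in every library. SNHG25 had 25.5, 14.3 and 18.8 TPM in sh-LINC00958 and 4.08 and 3.88 TPM in sh-NC (2.01, SE 0.234, adjusted p = 0.0135). The host and both snoRNAs rose together, and the difference between their fold changes was not tested.

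SNORA57, an H/ACA snoRNA within the mitochondrial methyltransferase gene METTL12, had 12.7, 14.9 and 11.6 TPM in sh-LINC00958 and 6.23 and 6.59 TPM in sh-NC (log2 fold change 0.92, SE 0.139, limma adjusted p = 0.0229). SNORA74A, an H/ACA snoRNA in an intron of SNHG4, had 5.02, 3.67 and 3.96 TPM in sh-LINC00958 and 1.47 and 1.98 TPM in sh-NC (0.93, SE 0.182, adjusted p = 0.0361). SNORD36B, a C/D snoRNA of the ribosomal protein gene RPL7A, had 12.1, 11.2 and 7.84 TPM in sh-LINC00958 and 5.57 and 4.18 TPM in sh-NC (0.95, SE 0.215, adjusted p = 0.0486). All 3 were above the controls in every silenced library. SNORD64, an orphan C/D snoRNA in an intron of SNHG14, had 2.93, 2.95 and 2.12 TPM in sh-LINC00958 and 1.17 and 0.841 TPM in sh-NC (0.87, SE 0.189, adjusted p = 0.0446). With a pseudocount of 5 the log2 fold change was 0.35 for SNORD64 and 0.45 for SNORA74A, and with 0.1 it was 1.32 and 1.24 in the same order.

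Apart from SNORD27, the small RNAs that fell were SNORA4 and SNORD87. SNORA4 (chr3:186787612-186787749, plus strand), an H/ACA snoRNA of the translation initiation helicase gene EIF4A2, was the most abundant H/ACA member. It had 65.8, 85.04 and 74.1 TPM in sh-LINC00958 and 111.2 and 113.2 TPM in sh-NC (log2 fold change -0.58, SE 0.119, limma adjusted p = 0.0388). SNORD87, a C/D snoRNA of SNHG6, had 25.1, 24.1 and 28.7 TPM in sh-LINC00958 and 37.2 and 35.7 TPM in sh-NC (-0.48, SE 0.107, adjusted p = 0.0472). Both were abundant in every library, and no silenced library reached the level of a control.

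SNORD12 and SNORD27 kept an adjusted p under 0.05 in 14 of 15 alternative fits and SNORD5 in 13. SNORD36B and SNORD87 kept it in 5 of 15 and SNORA4 in 8 of 15. With either sh-NC library left out, their adjusted p was 0.1102 or more. Without sh-LINC00958 library 1 or library 3, likewise, none of the 8 and not SNORD116-2 passed. Just short of the threshold were SNORD37 (log2 fold change 0.68, limma adjusted p = 0.0537), SNORD34 (0.97, adjusted p = 0.0549), SNORD91A (1.26, adjusted p = 0.0631) and SNORA25 (-0.61, adjusted p = 0.0634). These were picked out after their values were seen.

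The small RNAs were also grouped by where they lie in their hosts. By GENCODE 29, 44 of the 177 lay wholly within annotated exons of a host gene on the same strand, 109 lay within introns, 14 were partly exonic, 7 lay antisense to a gene and 3 were intergenic. Of the 44 exonic members, 6 rose and 3 fell (20.5%), against 9.8% of all genes tested. Of those 9 calls, 4 (SNORD5, SNORD12, SNORD27 and SNORA77B) passed the mean filter only through the group where they were high. Among the 35 exonic members with a mean of at least 1 TPM in both groups, 3 rose and 2 fell (14.3%). Among the 9 with a group mean under 1 TPM, 3 rose and 1 fell (44.4%). Of the 109 intronic members, 4 rose and 0 fell by limma (3.67%). In either direction, 25 had an unadjusted p under 0.05, against 30.7% of all genes tested. A group mean under 1 TPM was found in 17 of the 109, among them SNORD116-2, which is 1 of the 4 that rose. The difference between the called shares of exonic and intronic members was not tested. The median level was 13.2 TPM for exonic members and 3.68 TPM for intronic members. Their median log2 fold changes were -0.016 and 0.11. The typical spread within groups, as a median SD on the log2(TPM + 1) scale, was 0.295 for exonic members, 0.373 for intronic members and 0.154 for all genes tested.

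**Figure D2:**
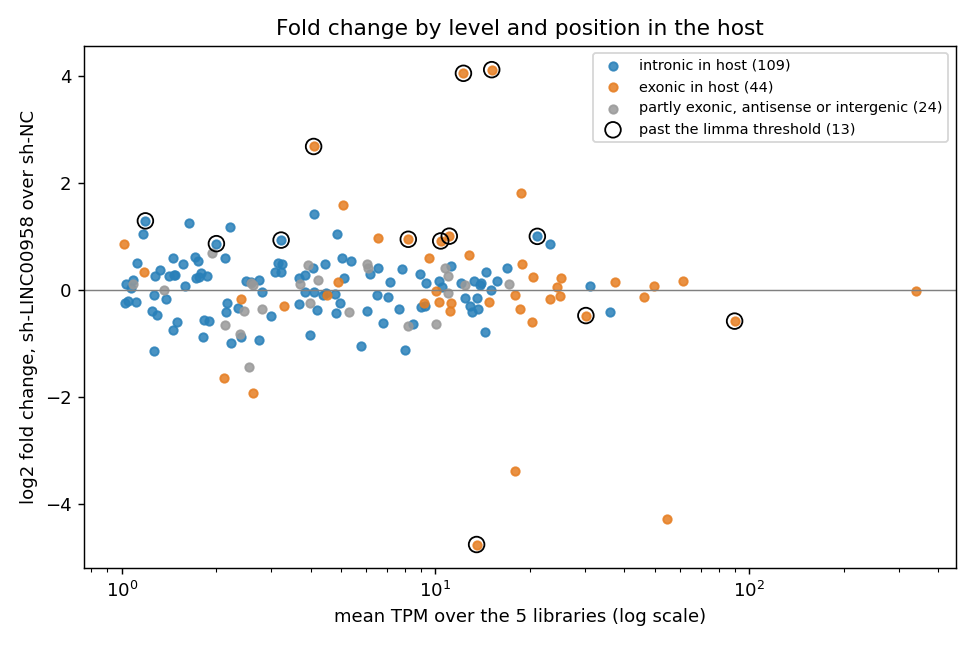
Log2 fold change (sh-LINC00958 over sh-NC, vertical axis) against mean TPM over the 5 libraries (log axis) for the 177 small RNAs, coloured by position in the host, with the 13 past the limma threshold circled. All fold changes beyond 2 in either direction belong to exonic members, whereas the 4 circled intronic members lie between 0.87 and 1.29.

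Some small RNAs alternated between near absence and abundance from library to library. Taking a library under 0.5 TPM together with another over 10 TPM as the criterion, a pair of limits chosen after the values were seen, 13 small RNAs met it. All 13 were exonic, 29.5% of that class, and 0 of the other 133 small RNAs met it. The upper limit is harder to reach for less abundant genes, and the contrast was not matched for level. A mean over 10 TPM was found in 30 of the 44 exonic members and in 27 of the other 133. Over all genes tested 39 met the criterion (0.229%), and the other 26 comprised 7 genes under 200 nt and 19 longer genes. The 13 were 8 C/D and 5 H/ACA members, and they included SNORD5, SNORD12 and SNORD27.

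In 10 of the 13 the alternation did not give a call, although the groups did not overlap in 4 of those 10. SNORA40 of TAF1D had 0.249, 0.315 and 78.6 TPM in sh-LINC00958 and 96.7 and 97.9 TPM in sh-NC (log2 fold change -4.28, SE 1.82, limma adjusted p = 0.177). Silenced library 3 thus lay close to the controls and silenced libraries 1 and 2 were nearly empty. SNORD26 of SNHG1 had 21.99, 0.247 and 0.240 TPM in sh-LINC00958 and 30.0 and 37.3 TPM in sh-NC (-3.39, adjusted p = 0.144). The library that kept SNORD26 was not the one that kept SNORA40. SNORA6 of the ribosomal protein gene RPSA had 24.4, 0.221 and 0.388 TPM in sh-LINC00958 and 0.205 and 0.136 TPM in sh-NC. SNORA44 of SNHG12 had 0.0236, 0.0404 and 0.0261 TPM in sh-LINC00958 and 12.9 and 0.0910 TPM in sh-NC. In both a single library carried almost all of the signal.

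The other 6 alternated within groups that overlapped. SNORD65 of LRRC75A-AS1 had 0.173, 20.3 and 20.6 TPM in sh-LINC00958 and 22.9 and 0.135 TPM in sh-NC. SNORD58C of RPL17 had 17.5, 23.5 and 24.0 TPM in sh-LINC00958 and 0.395 and 28.3 TPM in sh-NC. SNORA17 of SNHG7 had 10.9, 0.386 and 21.2 TPM in sh-LINC00958 and 0.411 and 14.9 TPM in sh-NC. In each of these, low and high libraries occurred on both sides or in the controls alone, and none was called. SNORD88C of C19orf48 had 0.208, 17.5 and 12.9 TPM in sh-LINC00958 and 1.58 and 23.9 TPM in sh-NC. SNORD24 of RPL7A, also used as a reference RNA in small RNA assays, had 0.1003, 0.0870 and 15.5 TPM in sh-LINC00958 and 6.88 and 0.0628 TPM in sh-NC. SNORA29 of TCP1 had 0.106, 0.160 and 0.1297 TPM in sh-LINC00958 and 10.04 and 0.125 TPM in sh-NC.

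**Figure D3:**
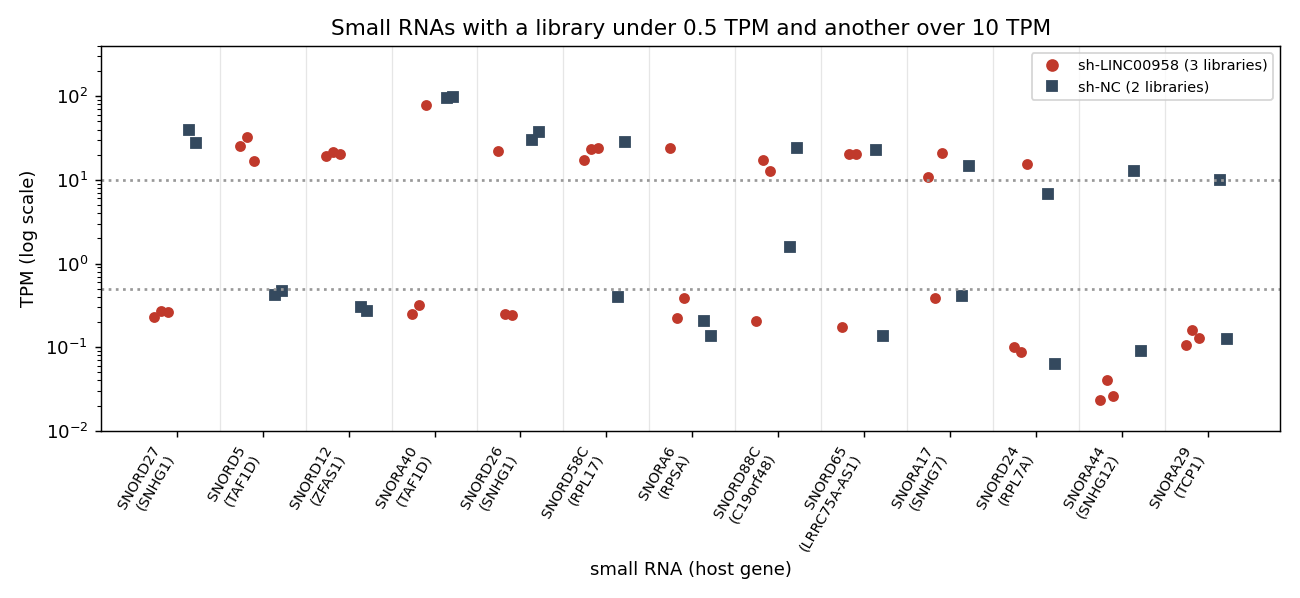
TPM on a log axis of the 13 small RNAs with a library under 0.5 TPM and another over 10 TPM (dotted lines), with 1 point per library and the host in brackets, the 3 called ones at the left. In SNORD27, SNORD5 and SNORD12 the low and high libraries coincide with the groups, whereas in SNORD65, SNORD88C, SNORA17 and SNORD24 both groups hold low and high libraries or a library between.

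No single library held all low or all high values of these 13. The numbers over 10 TPM were 6, 5 and 8 in sh-LINC00958 libraries and 6 and 6 in sh-NC libraries, and those under 0.5 TPM were 7, 8 and 5 in sh-LINC00958 and 5 and 7 in sh-NC. The 32 low values lay between 0.0236 and 0.467 TPM with a median of 0.0719% of the host's TPM. The 31 high values lay between 10.04 and 97.9 TPM with a median of 17.6% of the host. A further 60 exonic genes of these names, in hosts with a mean over 50 TPM, stayed above 0 and below 0.5 TPM in every library, and their highest value was 0.492 TPM. The 60 were selected for staying under 0.5 TPM, so their match in size to the 32 low values follows from that limit. Their means were too low for them to count among the small RNAs as defined here. What share they made up of all exonic genes of these names in such hosts is not given.

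Exonic position rested on particular host transcripts. Of the 44 exonic members, 31 lay in an exon of a host transcript annotated as a retained intron, 23 of them only there, and 5 lay in an exon of a protein-coding transcript. SNORD5 lay in 2 of 22 annotated TAF1D transcripts, SNORD27 in 4 of 25 and SNORD26 in 1 of 25 SNHG1 transcripts, and SNORD12 in 1 of 10 ZFAS1 transcripts. How the authors' quantification divided reads between such a host transcript and the small RNA is not stated, and its part in the alternating values was not tested.

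Neighbouring small RNAs of TAF1D, SNHG1 and ZFAS1 included called and uncalled ones, whereas both of SNHG25 rose. TAF1D holds 8 genes of these names, of which 5 reached a mean of 1 TPM. Beside SNORD5, which rose, and SNORA40, which alternated, SNORA8 had 23.9, 25.8 and 22.3 TPM in sh-LINC00958 and 22.5 and 30.3 TPM in sh-NC. SNORA25 had 16.3, 19.9 and 14.1 TPM in sh-LINC00958 and 24.9 and 26.8 TPM in sh-NC, and SNORD6 had 7.55, 8.02 and 4.68 TPM in sh-LINC00958 and 5.89 and 9.10 TPM in sh-NC. Thus SNORA8 and SNORD6 overlapped between groups, while SNORA25 was below both controls in every silenced library without passing the test. TAF1D itself fell, with 77.6, 85.9 and 73.6 TPM in sh-LINC00958 and 128.5 and 125.8 TPM in sh-NC (log2 fold change -0.68, limma adjusted p = 0.0181), opposite in sign to SNORD5.

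SNHG1 holds 7 genes of these names, of which 4 reached a mean of 1 TPM. Beside SNORD27, which fell, and SNORD26, which alternated, a gene named SNORD22 that GENCODE 29 lists under an Rfam name had 46.2, 56.2 and 49.6 TPM in sh-LINC00958 and 49.6 and 46.6 TPM in sh-NC. SNORD30 had 16.9, 17.4 and 18.9 TPM in sh-LINC00958 and 15.7 and 16.9 TPM in sh-NC. Both overlapped between groups and varied little. SNHG1 had 199.9, 196.7 and 215.9 TPM in sh-LINC00958 and 224.3 and 268.6 TPM in sh-NC (log2 fold change -0.27, limma adjusted p = 0.142).

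**Figure D4:**
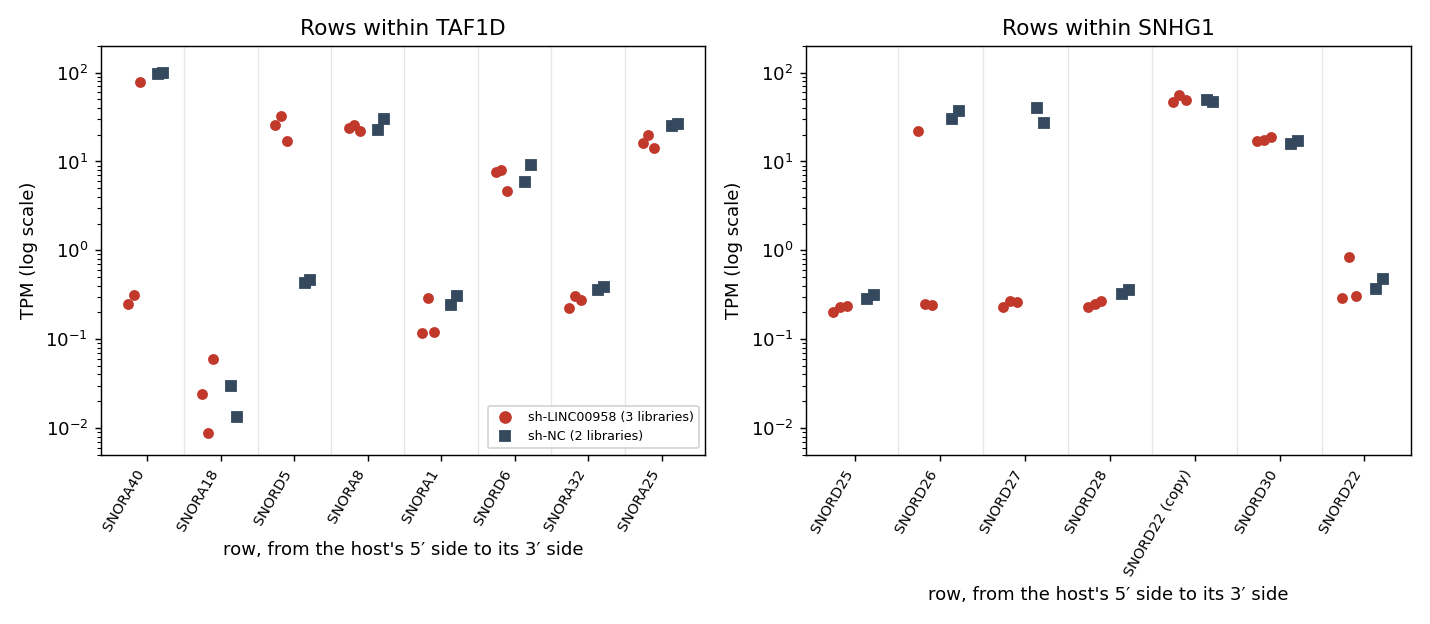
TPM on a log axis of every small RNA gene within TAF1D (left, 8 genes) and SNHG1 (right, 7 genes), in order along the host, with 1 point per library. SNORD5, SNORA40, SNORD26 and SNORD27 alternate between under 0.5 TPM and over 10 TPM, while SNORA8, SNORA25, SNORD30 and the SNORD22 copy stay above 10 TPM in all 5 libraries.

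ZFAS1 holds 3 small RNAs, all of which reached 1 TPM. The intronic SNORD12B had 11.3, 10.6 and 16.4 TPM in sh-LINC00958 and 8.37 and 9.51 TPM in sh-NC, and the intronic SNORD12C had 1.00, 3.73 and 0.820 TPM in sh-LINC00958 and 5.10 and 3.05 TPM in sh-NC. Neither was called (limma adjusted p = 0.195 and 0.217), although SNORD12B did not overlap. ZFAS1 had 91.5, 86.9 and 79.9 TPM in sh-LINC00958 and 107.3 and 111.1 TPM in sh-NC (log2 fold change -0.34, adjusted p = 0.0622), a lower level in every silenced library while SNORD12 rose.

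SNHG14 holds 84 genes of these names, of which 5 reached 1 TPM. Of its 30 SNORD116 genes, 28 had a value above 0, none above 3.16 TPM, and their summed level was 10.4, 11.3 and 12.9 TPM in sh-LINC00958 and 8.22 and 12.5 TPM in sh-NC, with overlapping groups. All 49 SNORD115 genes were listed at 0 in every library. SNHG14 itself fell, with 45.8, 49.0 and 45.2 TPM in sh-LINC00958 and 82.1 and 80.4 TPM in sh-NC (log2 fold change -0.79, limma adjusted p = 0.0103), opposite in sign to SNORD116-2 and SNORD64.

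In all, 167 small RNAs lay in 114 hosts, 26 of them in 18 ribosomal protein genes and 28 in 14 SNHG genes, and 13 had more than 1 possible host. Of the 10 small RNAs that rose, 2 had a host that rose, 3 a host that fell and 5 a host that was not called. The 3 that fell had hosts that were not called. Among hosts of called small RNAs with no call of their own, METTL12 had a log2 fold change of 0.54 (limma adjusted p = 0.0554). METTL12 lay above both controls in every silenced library. The others above 0 were SNHG4 (0.12), RANBP1 (0.11) and RPL7A (0.10). Those below 0 were ZFAS1 (-0.34), SNHG1 (-0.27), EIF4A2 (-0.16) and SNHG6 (-0.12). Without either sh-NC library the calls of TAF1D, SNHG14 and SNHG25 were lost (limma adjusted p between 0.0849 and 0.115). Without sh-LINC00958 library 1 the limma adjusted p was 0.0786 for TAF1D, 0.0589 for SNHG14 and 0.0444 for SNHG25. Of the small RNAs that were not called, 20 had a host that fell, 1 a host that rose, 132 a host that was not called and 1 a host that was not tested. Over all genes tested, 5.68% were called lower and 4.12% higher. Small RNAs of the same host count that host repeatedly, as for TAF1D and SNHG14, so the 20 are not separate hosts. Across 166 small RNAs with a tested host, Pearson's r between the 2 log2 fold changes was 0.13, with the same sign in 94. These points share hosts, 113 in all, and libraries, and the value is a description. It was 0.15 over 44 exonic members, 0.14 over 108 intronic members, and 0.38 over the 31 exonic members that did not alternate. The median small RNA stood at 3.05% of its host's TPM.

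**Figure D5:**
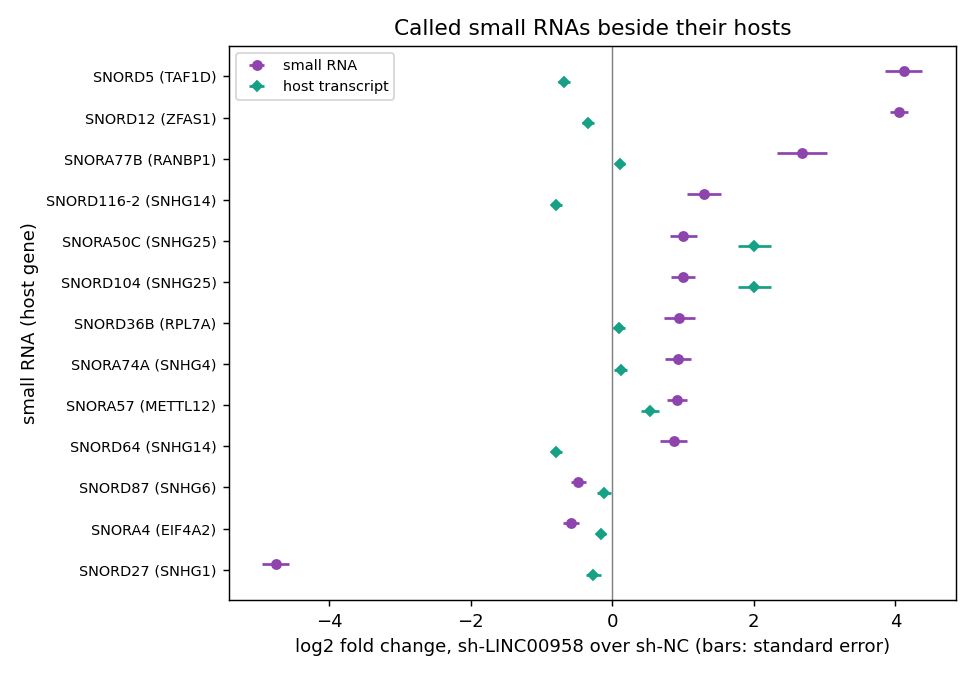
Log2 fold change (sh-LINC00958 over sh-NC) of the 13 called small RNAs (circles) and of their host transcripts (diamonds), with standard errors as bars. Among hosts past the threshold, SNHG25 rose beside its small RNAs, while TAF1D and SNHG14 have fold changes of -0.68 and -0.79 opposite to SNORD5, SNORD116-2 and SNORD64.

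SNORD58B, a C/D snoRNA of the ribosomal protein gene RPL17, is shown as the most abundant member, with 17.8% of the summed TPM of all 177, and SCARNA22, from an intron of the histone methyltransferase gene NSD2, as an abundant scaRNA. SNORD58B lies at chr18:49491664-49491729 on the minus strand and SCARNA22 at chr4:1974636-1974760 on the plus strand. Capitals mark CTGA and ACA, as above.
SNORD58B: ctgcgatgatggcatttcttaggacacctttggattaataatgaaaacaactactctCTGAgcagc
SCARNA22: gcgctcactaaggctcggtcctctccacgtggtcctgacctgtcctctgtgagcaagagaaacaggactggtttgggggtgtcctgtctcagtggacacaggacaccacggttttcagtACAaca

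SNORD58B had 342.7, 352.7 and 322.1 TPM in sh-LINC00958 and 335.9 and 346.7 TPM in sh-NC, with overlapping groups and a log2 fold change of -0.0098 (SE 0.0712, limma adjusted p = 0.941). Its RPL17 neighbours differed from it in level, since SNORD58A had between 12.2 and 18.8 TPM and SNORD58C alternated. Other abundant C/D members were the SNORD22 copy of SNHG1, SNORD88B of C19orf48 and SNORD17 of SNX5. SNORD88B had 38.0, 33.8 and 45.04 TPM in sh-LINC00958 and 36.6 and 33.0 TPM in sh-NC. SNORD17 had 27.7, 32.9 and 35.0 TPM in sh-LINC00958 and 41.9 and 42.9 TPM in sh-NC (log2 fold change -0.41, adjusted p = 0.0856), below both controls without a call.

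After SNORA4, the most abundant H/ACA members were SNORA67 of EIF4A1, SNORA40 and SNORA63 of EIF4A2. SNORA67 had 66.8, 59.1 and 67.5 TPM in sh-LINC00958 and 57.6 and 56.2 TPM in sh-NC (log2 fold change 0.17, limma adjusted p = 0.256). SNORA63 had 49.8, 42.7 and 41.2 TPM in sh-LINC00958 and 48.3 and 48.8 TPM in sh-NC. SNORA63 and SNORA4 share the host EIF4A2, which had 427.9, 464.8 and 415.1 TPM in sh-LINC00958 and 492.2 and 482.1 TPM in sh-NC (-0.16, adjusted p = 0.205).

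The summed level of all 177 was 1832, 1883 and 1928 TPM in sh-LINC00958 and 1935 and 1995 TPM in sh-NC, between 0.183% and 0.200% of each library. C/D members summed to 1097.7 ± 42.0 TPM in sh-LINC00958 (SD, n = 3) and 1092.6 ± 44.5 TPM in sh-NC (SD, n = 2). H/ACA members summed to 720.0, 692.7 and 780.8 TPM in sh-LINC00958 and 831.2 and 828.4 TPM in sh-NC. Without SNORA40 of TAF1D those sums were 719.7, 692.4 and 702.2 TPM in sh-LINC00958 and 734.5 and 730.4 TPM in sh-NC. The gap between the groups was smaller without it, and the groups still did not overlap. SNORA4, which was called lower, remains in these sums. It contributed 65.8, 85.04 and 74.1 TPM in sh-LINC00958 and 111.2 and 113.2 TPM in sh-NC. Sums without SNORA4 are not given, so the remaining gap cannot be read as one of the whole class. The scaRNAs summed to 54.7, 49.6 and 52.3 TPM in sh-LINC00958 and 42.8 and 42.7 TPM in sh-NC, without overlap. As single genes, 4 of 12 scaRNAs did not overlap, 2 with sh-LINC00958 above and 2 below. Among H/ACA members 26 of 86 did not, 13 above and 13 below, against 49.9% of all genes tested.

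No scaRNA passed the test by itself. SCARNA22 had 12.9, 15.9 and 14.9 TPM in sh-LINC00958 and 13.9 and 12.3 TPM in sh-NC, with overlapping groups. SCARNA12 of the prohibitin gene PHB2 had 14.7, 11.6 and 9.84 TPM in sh-LINC00958 and 8.62 and 8.81 TPM in sh-NC (log2 fold change 0.41, limma adjusted p = 0.179), above both controls in every silenced library. SCARNA16 of SEC14L1, the scaRNA with an unadjusted p under 0.05, had 4.97, 2.60 and 1.88 TPM in sh-LINC00958 and 1.21 and 0.406 TPM in sh-NC (1.17, adjusted p = 0.0955). SCARNA8 of HAUS6 had 5.29, 2.57 and 8.78 TPM in sh-LINC00958 and 2.70 and 6.15 TPM in sh-NC, and SCARNA6 of ATG16L1 had 4.44, 2.99 and 4.50 TPM in sh-LINC00958 and 3.43 and 2.97 TPM in sh-NC. The median within-group SD of scaRNAs, 0.593 on the log2(TPM + 1) scale, was the highest of the 3 classes, at a median level of 2.22 TPM.

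SNORD3A, the U3 RNA needed for early cleavage of the ribosomal precursor, had 1.55, 1.23 and 5.94 TPM in sh-LINC00958 and 1.91 and 2.31 TPM in sh-NC. SNORD118, the U8 RNA, stayed between 0.175 and 0.344 TPM and did not reach the mean of 1. SNORA73B, a snoRNA of the U17 type from the chromatin regulator gene RCC1, had 9.22, 15.4 and 18.6 TPM in sh-LINC00958 and 11.6 and 14.6 TPM in sh-NC. SNORD48, a common reference RNA in small RNA assays, had 4.27, 3.51 and 14.0 TPM in sh-LINC00958 and 3.10 and 5.30 TPM in sh-NC (limma adjusted p = 0.588). In SNORD3A and SNORD48 the highest value was in sh-LINC00958 library 3 and the groups overlapped.

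At the threshold of the selection, SNORD68 of RPL13 (mean 1.02 TPM) had 4.86 TPM in sh-LINC00958 library 2 and under 0.08 TPM in the other 4 libraries. SNORA54 of NAP1L4 (mean 1.02 TPM) had 1.23, 1.24 and 0.177 TPM in sh-LINC00958 and 0.6004 and 1.85 TPM in sh-NC. Just outside were a SNORA67 gene within MAP4K3 (mean 0.982 TPM) and a SNORA46 gene within CNOT1 (mean 0.962 TPM). In 27 of the 177, 1 group had a mean under 1 TPM, the sh-NC group in 17 and the sh-LINC00958 group in 10.

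The proteins that assemble with, process or accompany these RNAs were examined in 6 lists, of which 49 genes were tested. Of these, 4 rose, 2 fell and 43 did not pass, against 9.8% called over all genes. Among the C/D core proteins (4 tested), NOP58 fell, with 124.2, 140.5 and 127.4 TPM in sh-LINC00958 and 173.7 and 177.5 TPM in sh-NC (log2 fold change -0.43, SE 0.0820, limma adjusted p = 0.035). The methyltransferase FBL had 564.6, 476.0 and 633.3 TPM in sh-LINC00958 and 474.2 and 451.0 TPM in sh-NC (0.26, adjusted p = 0.2202), and NOP56 had a log2 fold change of -0.046. The list's median log2 fold change was -0.018. Among the H/ACA core proteins (4 tested, median 0.18), NOP10 rose, with 516.2, 460.0 and 512.9 TPM in sh-LINC00958 and 378.8 and 372.2 TPM in sh-NC (0.40, SE 0.0778, adjusted p = 0.0358). The pseudouridine synthase DKC1 had a log2 fold change of 0.22 (adjusted p = 0.129) and NHP2 one of 0.14.

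Of 12 snoRNP assembly factors (median log2 fold change 0.069), 3 rose and 0 fell by limma. In either direction, 5 had an unadjusted p under 0.05, against 30.7% of all genes tested. NOLC1, a nucleolar and Cajal body chaperone of both classes, had 108.0, 104.2 and 136.1 TPM in sh-LINC00958 and 56.1 and 58.8 TPM in sh-NC (0.99, SE 0.131, limma adjusted p = 0.0178). TCOF1, the nucleolar protein treacle, had 66.7, 62.4 and 67.2 TPM in sh-LINC00958 and 37.5 and 37.0 TPM in sh-NC (0.80, SE 0.0804, adjusted p = 0.0103). RUVBL2, an ATPase of the assembly machinery, had 218.4, 198.8 and 197.3 TPM in sh-LINC00958 and 142.1 and 140.7 TPM in sh-NC (0.53, SE 0.0771, adjusted p = 0.0212). In each, every silenced library was above both controls. Without sh-LINC00958 library 1, or without either sh-NC library, none of the 6 called proteins kept an adjusted p under 0.05 by limma.

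Of 17 trimming and turnover factors (median log2 fold change -0.14), ZCCHC7, a subunit of the nucleolar exosome adaptor TRAMP, fell, with 24.5, 25.0 and 23.8 TPM in sh-LINC00958 and 32.9 and 38.8 TPM in sh-NC (-0.53, SE 0.104, limma adjusted p = 0.0366). RBM7, of the nuclear exosome targeting complex, had a log2 fold change of 0.95 (adjusted p = 0.0771), and the exonuclease XRN1 one of -0.52 (adjusted p = 0.0842). Of 7 Cajal body and cap proteins (median -0.19), 0 were called by limma. An unadjusted p under 0.05 was found in 3, all lower, against 30.7% of all genes tested in either direction. The 3 were SMN2 (-0.38, adjusted p = 0.0798), its near-identical copy SMN1 (-0.26, adjusted p = 0.0915) and COIL, which encodes coilin (-0.36, adjusted p = 0.103). Of 5 proteins of U6 modification or ribosomal RNA maturation (median -0.032), 0 were called and 1 had an unadjusted p under 0.05, the acetyltransferase NAT10 (0.20, adjusted p = 0.142). LARP7 and UTP3 had log2 fold changes of -0.47 and -0.15.

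Other short structured RNAs varied widely between libraries. Of 14, 5 had a mean of at least 1 TPM (median log2 fold change -0.22), and 0 were called by limma. An unadjusted p under 0.05 was found in 2 of these 5, against 30.7% of all genes tested. RN7SL1, an RNA of the signal recognition particle, had 435.7, 234.2 and 565.8 TPM in sh-LINC00958 and 182.1 and 173.5 TPM in sh-NC (1.12, limma adjusted p = 0.0978). RN7SL2 had 659.2, 300.8 and 708.6 TPM in sh-LINC00958 and 230.4 and 211.6 TPM in sh-NC (1.23, adjusted p = 0.0881). RN7SK, which sequesters a transcription elongation factor, had 9.19, 39.0 and 127.6 TPM in sh-LINC00958 and 40.8 and 83.2 TPM in sh-NC. Thus the lowest and the highest value of RN7SK were both in the silenced group. Across the 431 tested genes under 200 nt that are not small RNAs of these names, 6.26% were called and 32.0% had groups that did not overlap, with a median within-group SD of 0.412.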

How the data were processed

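RNA sequencing values came from 3 sh-LINC00958 and 2 sh-NC libraries of Ishikawa cells, in 1 table of 58174 genes deposited by the authors in TPM, scaled for length and library total, which leaves the sequencing depth unknown, so no counting interval or floor is given. Per the submitters' processing notes, the build was GRCh38 and the tools were StringTie 1.3.3b, HISAT2 2.0, Trimmomatic 0.36 and FastQC 0.11.2, with roles, annotation release and strand setting not given in the sources used here. Limma 3.58.1 (R 4.3.3) was fitted to log2(TPM + 1), using eBayes with a mean-variance trend and no further scaling, over the 17049 genes with a mean TPM of at least 1. P-values are two-sided, adjusted by Benjamini-Hochberg over all of these genes, with a threshold of 0.05, and the code was tested on simulated data. Fold changes on this scale understate the change of low genes. With 3 against 2 libraries an exact permutation test of 1 gene cannot go below p = 0.1, so single genes rest on the spread pooled by limma. Genes were matched by ID to GENCODE 29 for coordinates, sequences and hosts. A host is a gene on the same strand, with at least 200 nt of exon, that spans the small RNA, and the most abundant one where there are several. Exonic means wholly within its annotated exons.

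Named genes are the small RNAs past the threshold, the 4 most abundant of each class, those at the selection threshold, their hosts, and from each list the genes past the threshold and the 3 with the smallest p. The members and the 7 protein and RNA lists, and the 4 marker lists, were chosen with earlier results of these data known. A few small RNAs are named after their values were seen. The 15 alternatives were 2 other pseudocounts, no filter and a mean of at least 5 TPM, 3 other scalings, 2 variants of eBayes, each library left out, and the replicate number as a block. No pair of libraries held identical values. Some of the 851 small RNA genes have near-identical copies.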

Additional observations from a re-analysis of the deposited data

How the results depend on the processing

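Pseudocounts of 0.1 and 5, a mean of at least 5 TPM, median-ratio scaling, quantile normalization, rescaling without short and mitochondrial genes and robust eBayes kept each count of calls within 1.5 times and left every fold change tested with its sign. The pseudocount did move the size of fold changes by over 1.5 times in small RNAs with a low group, as for SNORD116-2 (0.41 with 5, 3.19 with 0.1, 1.29 with 1). With no filter, 207 genes were called higher and 269 lower, among them 2 small RNAs higher and 1 lower (SNORD12, SNORD5 and SNORD27). Without the mean-variance trend, 371 genes were called higher and 518 lower, with 10 small RNAs higher and 1 lower. Leaving out 1 library at a time gave 10 to 904 genes higher and 6 to 1486 lower, 2 to 12 small RNAs higher and 1 to 9 lower, and a median log2 fold change of the small RNAs between 0.00066 and 0.057, against 0.081 with all 5 libraries. Of the 13 small RNAs called, 4, 10 and 3 were called without sh-LINC00958 library 1, 2 or 3, and 3 and 2 without sh-NC library 1 or 2. The cause was not tested, and fewer libraries remain in each such fit.

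The libraries of the groups share replicate numbers 1 and 2, and the correlation of their deviations was 0.0013 and 0.050. With 2 controls, the deviations of each mirror those of the other, so these values cannot exclude a pairing. Nothing in the labels says that a number marks a shared culture, and whether it does is not known. With the replicate block, 0 genes were called higher and 2 lower, with 0 small RNAs higher and 1 lower (SNORA40). Of the 13 small RNAs called without it, 0 were called, and the median log2 fold change of the small RNAs was 0.025. Depth is unknown from TPM, so whether a low small RNA was missed for depth cannot be told.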
